A study of Mus musculus with 2 samples.

Results

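Antioxidant, glutathione and iron storage genes encode the enzymes that remove superoxide and peroxides, the proteins that make and use glutathione, and ferritin, which stores iron. The set described here holds 34 genes, taken by their official symbols from the transcript annotation, out of 55536 genes with an ID in the deposited gene table. All 34 symbols were found. The rule names genes by function and holds no measured value, but the genes were chosen with earlier results of these data known. How far that choice shaped the number detected and their levels beside other genes was not tested.

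The tissue was left cerebral cortex from 2 males of the strain B6CASTF1/J at an age of 2 months. B6CASTF1/J is the first-generation hybrid of the inbred strains C57BL/6J and CAST/EiJ. Each animal gave 1 library of total RNA, made from 300 ng after reduction of ribosomal RNA and with ERCC synthetic RNAs added as spike-ins. No treatment or altered allele is named for either animal, and both belong to 1 group, replicate 1 and replicate 2, so the design holds no comparison between conditions. The labels number the males separately but give both samples the same donor record, which is read here as a record of the strain. If it were 1 animal, every SD and ratio between replicates would describe technical spread.

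Superoxide dismutases turn superoxide into hydrogen peroxide, which catalase, glutathione peroxidases and peroxiredoxins then reduce. Glutathione peroxidases draw on glutathione and peroxiredoxins on thioredoxin, and both are recharged by reductases that use NADPH. Free iron drives radical chemistry, and ferritin keeps it in a safe form. In brain, high oxygen use and a membrane rich in polyunsaturated lipids make these systems a standing need, and the transcription factor Nrf2 switches on many of them under stress.

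Levels are TPM, a transcript abundance scaled by transcript length, so levels can be set side by side between genes. A gene's level adds all its transcript forms, noncoding and incomplete ones included. Expected counts summed to 33007629 for replicate 1 and to 32142918 for replicate 2. Cortical glutamatergic neuron markers were detected for 6 of 6 genes, with summed levels of 1582 and 1581 TPM. Replicate 1 also held more RNA of 6 of 6 striatal markers (240.4 against 135.2 TPM in replicate 2) and of 6 of 6 mature oligodendrocyte markers (826.4 against 671.2 TPM in replicate 2). Red blood cell markers were higher there for 4 of 5 genes, at 463.2 TPM against 378.6 TPM in replicate 2. Inhibitory neuron markers were higher for 4 of 4 genes (286.7 against 254.9 TPM in replicate 2) and astrocyte markers for 3 of 5 (337.4 against 321.4 TPM in replicate 2). Replicate 2 held more of the choroid plexus markers, with 93.2 TPM against 11.0 TPM in replicate 1, nearly all of it Ttr. The choroid plexus marker Folr1 was listed at 0 in replicate 1. The samples were whole tissue, so fewer cells of a type and less RNA per cell cannot be told apart. One genome copy of the hybrid is of CAST/EiJ and differs from the C57BL/6J reference used for counting, and no measure of that effect was made.

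All 34 genes were detected at 1 TPM or more in both animals, over a wide range of levels. Fth1, the heavy subunit of ferritin, was the highest at 1014 TPM in replicate 1 and 977.4 TPM in replicate 2. Nqo1, a quinone reductase, was the lowest in the mean, at 1.77 TPM in replicate 1 and 1.87 TPM in replicate 2. The mean level of Fth1 exceeded that of 99.7% of detected genes and the mean level of Nqo1 that of 8.35%. Together the 34 genes made up 3507 TPM in replicate 1 and 3337 TPM in replicate 2, which was 0.710% and 0.694% of the TPM of all protein-coding genes. Fth1 alone was 28.9% of the set's sum in replicate 1 and 29.3% in replicate 2.

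The median level of the 34 genes was 40.9 TPM in replicate 1 and 37.4 TPM in replicate 2. Over the 14989 genes detected in both animals, the median was 13.6 TPM in each. Of the 34 genes, 26 lay above that median and 12 lay above 75.9 TPM, the level that 10% of detected genes exceed. In both animals 11 genes were at 100 TPM or more, 7 were below 10 TPM, and the other 16 lay between these bounds, of which Prdx4 was just below 10 TPM in replicate 1 only. Ordered by level, 20 of the 33 pairs of neighbours had ranges over the 2 animals that did not overlap, and 13 pairs did overlap.

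**Figure D1:**
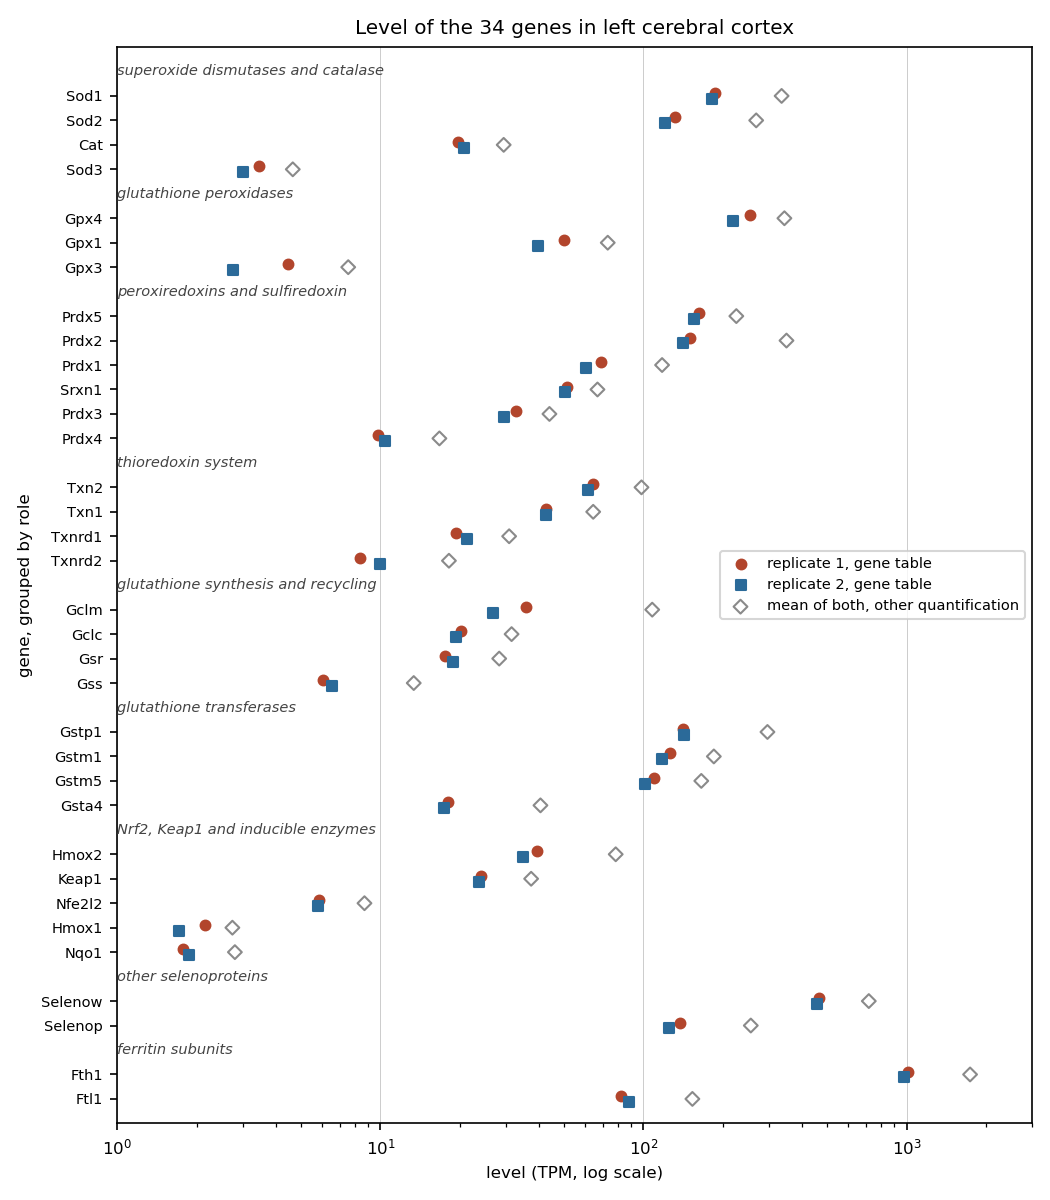
Level in TPM on a log axis of each of the 34 genes, grouped by role, with replicate 1 as circles, replicate 2 as squares and the mean of both animals in the other deposited quantification as open diamonds. Levels run from 1.82 TPM for Nqo1 to 996 TPM for Fth1, and the 2 animals lie close together for most genes.

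Among the enzymes that act on superoxide, the cytosolic and mitochondrial dismutases were abundant and the extracellular one was scarce. Sod1, the cytosolic copper-zinc enzyme (ENSMUSG00000022982.10, chr16:90220754-90226329, plus strand, build mm10), had 187.8 TPM in replicate 1 and 181.5 TPM in replicate 2. Sod2, the mitochondrial manganese enzyme (chr17:13006846-13040063, plus strand), had 131.8 TPM in replicate 1 and 120.8 TPM in replicate 2. The 2 genes did not overlap in level, and Sod1 was at 1.46 ± 0.0549 times Sod2 (SD, n = 2 animals). The coding form Sod2-201 held 38.6% of the TPM of Sod2 in the mean, so this is not a ratio of coding forms.

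Sod3, the secreted enzyme, had 3.45 TPM in replicate 1 and 3.00 TPM in replicate 2. Sod1 was thus at 57.5 ± 4.28 times Sod3. Cat, the catalase of peroxisomes, had 19.7 TPM in replicate 1 and 20.7 TPM in replicate 2, and Sod2 was at 6.27 ± 0.617 times Cat. Of the 3 dismutases, Sod1 and Sod2 were thus above catalase and Sod3 below it in both animals.

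The glutathione peroxidases fell into 3 well-separated levels. Gpx4 (ENSMUSG00000075706.10, chr10:80047166-80056439, plus strand), which reduces lipid peroxides inside membranes and protects cells from ferroptosis, had 254.5 TPM in replicate 1 and 218.3 TPM in replicate 2. Gpx1, the common enzyme of the cytosol, had 49.7 TPM in replicate 1 and 39.8 TPM in replicate 2. Gpx3, the secreted plasma enzyme, had 4.46 TPM in replicate 1 and 2.75 TPM in replicate 2. Gpx4 was at 5.31 ± 0.265 times Gpx1 and at 68.2 ± 15.8 times Gpx3, so the order was the same in both animals and the distance to Gpx3 was the less certain of the pair.

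All 3 peroxidases, both thioredoxin reductases, Selenop and Selenow carry selenocysteine, an amino acid read from a TGA codon that elsewhere means stop. In the annotation used, 7 of the 34 genes have such a codon, beside 24 of 22029 genes with a complete coding annotation, or 0.109%. The 30 bases around the codon are shown because it marks off these 7 genes from the rest of the set. The sequences are read 5′ to 3′ on the coding strand of the named transcript, with the TGA in capitals and its mm10 position in brackets.
Gpx1-201 (chr9:108339451-108339453, plus strand): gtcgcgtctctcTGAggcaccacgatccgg
Gpx3-201 (chr11:54907256-54907258, plus strand): gtagccagctacTGAggtctgacagaccaa
Gpx4-202 (chr10:80054737-80054739, plus strand): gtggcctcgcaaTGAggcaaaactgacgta
Txnrd1-201 (chr10:82896037-82896039, plus strand): cagtctggctgcTGAggttaagccccagtg
Txnrd2-203 (chr16:18477772-18477774, plus strand): gtgactggttgcTGAggctaagtcaccatc
Selenop-201 (chr15:3274848-3274850, plus strand): cttcaagccagcTGAtacttgtgtcttctg
Selenow-201 (chr7:15920464-15920466, minus strand): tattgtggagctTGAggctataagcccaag

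The place of the codon differed between the families. It was codon 47 of 201 in Gpx1-201, codon 73 of 226 in Gpx3-201 and codon 73 of 197 in Gpx4-202, in the first part of each protein. In the thioredoxin reductases it was the last codon but one before the stop, codon 498 of 499 in Txnrd1-201 and codon 526 of 527 in Txnrd2-203, and the bases shown run on past the stop. Selenop-201 has 10 in-frame TGA codons, the first at codon 59 of 380. Selenow-201 has 1, at codon 13 of 88.

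The other selenoproteins of the set were both among its most abundant genes. Selenow, a small protein related to thioredoxin (ENSMUSG00000041571.9, chr7:15917208-15922402, minus strand), had 464.8 TPM in replicate 1 and 456.4 TPM in replicate 2, second only to Fth1. Selenop (ENSMUSG00000064373.12, chr15:3268547-3280508, plus strand), a secreted protein that supplies selenium to the brain, had 138.1 TPM in replicate 1 and 125.5 TPM in replicate 2. Selenow was at 3.50 ± 0.193 times Selenop. The 7 selenocysteine genes summed to 939.3 TPM in replicate 1 and 873.9 TPM in replicate 2, against 2568 and 2463 TPM for the other 27 genes.

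Peroxiredoxins, which reduce hydrogen peroxide through a reactive cysteine, were spread over more than 1 order of magnitude. Prdx5, found in mitochondria, peroxisomes and cytosol, had 162.0 TPM in replicate 1 and 156.3 TPM in replicate 2. Prdx2, a cytosolic member known from neurons and red blood cells, had 149.9 TPM in replicate 1 and 140.8 TPM in replicate 2. Prdx1, also cytosolic, had 69.2 TPM in replicate 1 and 60.2 TPM in replicate 2. Prdx5 and Prdx2 kept their order in this quantification, and both exceeded Prdx1 in each animal.

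Prdx3, the peroxiredoxin confined to mitochondria, had 32.7 TPM in replicate 1 and 29.5 TPM in replicate 2. Prdx4, which works in the endoplasmic reticulum, had 9.79 TPM in replicate 1 and 10.4 TPM in replicate 2. Prdx2 was at 2.25 ± 0.122 times Prdx1 and at 14.4 ± 1.28 times Prdx4. Of the 2 mitochondrial members, Prdx5 was at 5.13 ± 0.250 times Prdx3. Srxn1, the sulfiredoxin that repairs overoxidised peroxiredoxins, had 51.2 TPM in replicate 1 and 50.4 TPM in replicate 2, and Prdx5 was at 3.13 ± 0.0465 times Srxn1. Its level was below those of the 3 highest peroxiredoxins and above those of Prdx3 and Prdx4 in both animals.

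In the thioredoxin system the mitochondrial thioredoxin was higher than the cytosolic one, whereas of the reductases the cytosolic one was higher. Txn2, the mitochondrial thioredoxin, had 64.1 TPM in replicate 1 and 61.4 TPM in replicate 2, and Txn1, the cytosolic one, had 42.5 TPM in replicate 1 and 42.7 TPM in replicate 2. The ratio of Txn1 to Txn2 was 0.679 ± 0.0234. Txnrd1, the cytosolic reductase, had 19.4 TPM in replicate 1 and 21.3 TPM in replicate 2, and Txnrd2, the mitochondrial one, had 8.39 TPM in replicate 1 and 9.93 TPM in replicate 2. Txnrd1 was at 2.22 ± 0.120 times Txnrd2.

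Genes of glutathione synthesis and recycling were of middling or low level. Gclc, the catalytic subunit of the rate-limiting ligase of glutathione synthesis, had 20.3 TPM in replicate 1 and 19.4 TPM in replicate 2. Gclm, its modifier subunit, had 35.9 TPM in replicate 1 and 26.7 TPM in replicate 2, and the ratio of Gclm to Gclc was 1.57 ± 0.278. Gclm-201 and Gclm-206, complete coding forms of 274 codons, held 29.8% and 23.9% of Gclm's TPM in the mean, against 98.3% for Gclc-201. The ratio therefore does not give the order of the coding forms. Gss, which adds the last amino acid, had 6.05 TPM in replicate 1 and 6.54 TPM in replicate 2. Gsr, the reductase that returns oxidised glutathione to its active form, had 17.6 TPM in replicate 1 and 18.9 TPM in replicate 2. Of this the noncoding form Gsr-202 held 44.7% in the mean. Gss was at 0.345 times Gsr in the mean, and the step that ends the synthesis was thus the lowest of the 4 in both animals.

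Glutathione transferases, which attach glutathione to reactive compounds, included 3 genes above 100 TPM. Gstp1, of the pi class, had 141.0 TPM in replicate 1 and 143.1 TPM in replicate 2. Gstm1, of the mu class and well known from astrocytes, had 125.9 TPM in replicate 1 and 117.5 TPM in replicate 2, and Gstm5, also of the mu class, had 109.4 TPM in replicate 1 and 101.5 TPM in replicate 2. These 3 genes kept the order Gstp1, Gstm1, Gstm5 in both animals. Gsta4, an alpha-class enzyme that acts on the lipid aldehyde 4-hydroxynonenal, was far lower, with 18.0 TPM in replicate 1 and 17.5 TPM in replicate 2. Gstm1 was at 6.86 ± 0.191 times Gsta4.

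The stress regulator Nrf2 and its inhibitor were expressed with the inhibitor ahead. Keap1, which holds Nrf2 in the cytosol and marks it for breakdown, had 24.2 TPM in replicate 1 and 23.7 TPM in replicate 2. Nfe2l2, the gene of Nrf2, had 5.85 TPM in replicate 1 and 5.80 TPM in replicate 2. Keap1 was at 4.11 ± 0.0309 times Nfe2l2. Of the haem oxygenases, which break haem down and release its iron, the constitutive Hmox2 had 39.3 TPM in replicate 1 and 35.0 TPM in replicate 2, and the inducible Hmox1 had 2.16 TPM in replicate 1 and 1.72 TPM in replicate 2. Hmox2 was at 19.3 ± 1.52 times Hmox1. Nqo1 and Hmox1, both classic inducible targets, were the 2 lowest genes of the set, their ranges overlapped, and their ratio of 0.953 ± 0.189 was on opposite sides of 1 in the 2 animals.

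Nrf2 binds the antioxidant response element, and its core, TGACNNNGC, was searched on both strands of 300-base promoter windows from RefSeq (build GRCm38.p6, 250 bases before and 50 after the start). Windows were matched for 29 of the 34 genes, 40 windows in all, and 7 windows of 7 genes held the core. Over all 32851 windows, 4071 held it, or 12.4%. The matches are shown with 8 bases on each side because they are the stretch that Nrf2 is known to read, with the core in capitals and the window's position in brackets. Each is written on the strand of the gene, so a core on the opposite strand appears as its complement.
Nfe2l2 (chr2:75704614-75704913, minus strand): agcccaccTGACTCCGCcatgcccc
Srxn1 (chr2:152105274-152105573, plus strand): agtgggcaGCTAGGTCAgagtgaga
Gstm5 (chr3:107895604-107895903, plus strand): ccgcccacTGACCACGCggagggcg
Gclm (chr3:122245307-122245606, plus strand): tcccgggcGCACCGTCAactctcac
Prdx1 (chr4:116685349-116685648, plus strand): gggaaagcGCTGAGTCAtcccccgt
Txnrd1 (chr10:82858956-82859255, plus strand): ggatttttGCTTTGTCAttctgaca
Sod1 (chr16:90220512-90220811, plus strand): caaggtggGCGTGGTCAgactcagg

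The core was on the gene's own strand in Nfe2l2 and Gstm5 and on the opposite strand in the other 5 genes. The 7 genes differed widely in level, with Sod1 at 185 TPM in the mean and Nfe2l2 at 5.83 TPM. A match is a description of the letters, not a sign that the factor was bound there. The window of Nqo1 gave no match, which says only that these letters were not found in it.

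The ferritin subunits were the highest and the 12th highest of the set. Fth1 (ENSMUSG00000024661.7, chr19:9980598-9985098, plus strand) encodes the heavy subunit, whose ferroxidase site oxidises iron on entry. Ftl1 (ENSMUSG00000050708.16, chr7:45457944-45459884, minus strand) encodes the light subunit, which helps form the iron core, and had 82.4 TPM in replicate 1 and 88.3 TPM in replicate 2. Fth1 was at 11.7 ± 0.876 times Ftl1, a ratio that depends on how reads of near-identical ferritin genes were assigned, as given further on.

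Both ferritin messages carry the iron-responsive element, a hairpin near the 5′ end that iron regulatory proteins bind when iron is low. The bulged C and the loop were searched on the sense strand, as a C, 5 bases of any kind and then CAGTGN, in the first 250 bases of the leading transcript of every gene of the set. Fth1-201 and Ftl1-201 were the only leading transcripts to hold it, although over all 44835 protein-coding transcripts 4402 did, or 9.82%, so the letters alone are common. The bulged C and the loop letters are in capitals, and the positions are those of mm10.
Fth1-201 (chr19:9982730-9982757, plus strand): gtttcctgCttcaaCAGTGCttgaacgg
Ftl1-201 (chr7:45459782-45459809, minus strand): gtgtcttgCttcaaCAGTGTttgaacgg

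The bulged C is base 93 of a 5′ UTR of 224 bases in Fth1-201 and base 84 of one of 253 bases in Ftl1-201. The elements regulate translation, which RNA levels do not measure.

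**Figure D2:**
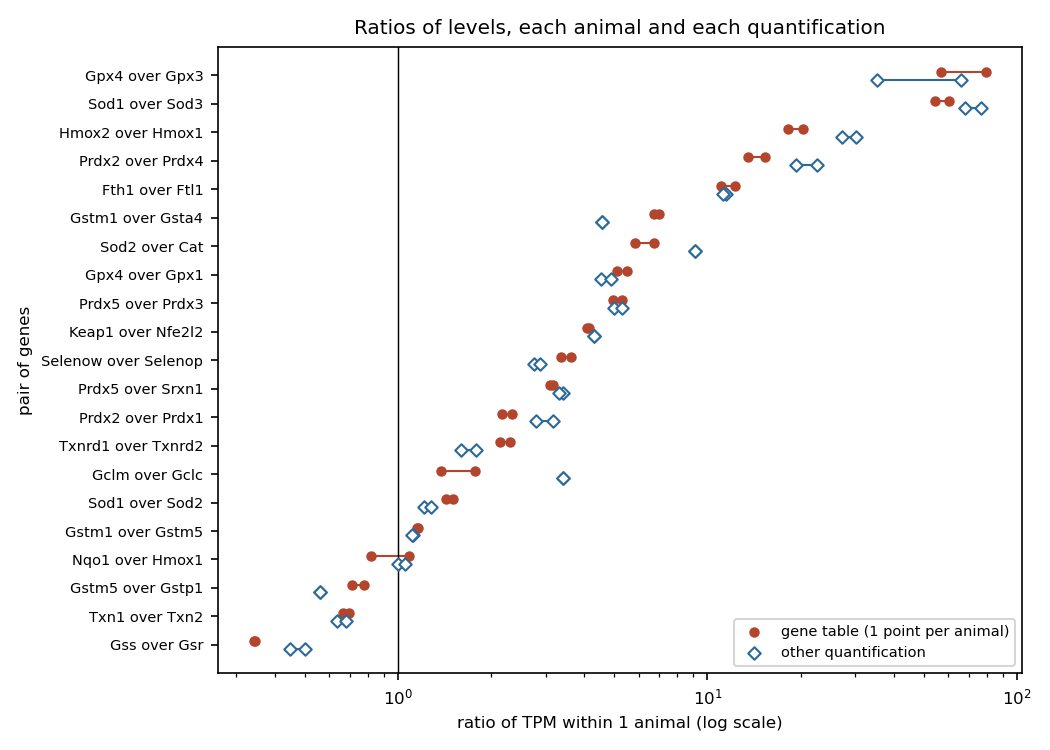
Ratio of TPM within each animal for 21 pairs of genes on a log axis, with filled circles for the gene table and open diamonds for the other deposited quantification, 1 point per animal. Most pairs keep their side of 1 in both tables, whereas Nqo1 over Hmox1 lies at 0.953 in the mean in the gene table and at 1.02 in the other.

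Between the animals, no gene of the 34 differed by 2-fold. Over all 18490 genes tested, 1.8% did. The ratios ran from a log2 of -0.10 for Prdx4 to 0.68 for Gpx3, and the median distance from 0 was 0.06, against 0.11 over all genes tested. In replicate 1, 10 of the 34 genes were higher than in replicate 2 by more than counting error and 0 were lower, and 24 had an interval that held 0. By that rule 22.6% of all genes tested differed, 11.6% being higher in replicate 1 and 11.0% lower. A gene counts here when the 95% counting interval of its log2 ratio leaves out 0. A single animal on each side allows no p-value, and the difference has no replicate check.

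The set's genes are also more deeply counted than most, with a median mean count of 1392 against 373 over all genes tested. Deeper counting makes narrow intervals and less counting scatter in the ratios. The median distance of the set was not compared with genes of like depth. At a mean count of 100 or more, which 32 of the 34 reach, 15.2% of genes were higher in replicate 1 and 12.2% lower. The median log2 ratio of the 34 genes was 0.05, against -0.0003 over all genes tested, and 26 of the 34 lay above 0. These directions rest on the scaling: with ERCC spike-in totals the median over all genes tested moved to -0.32 and that of the set to -0.27, with 0 of the 34 higher and 29 lower in replicate 1. Under that scaling 0.811% of all genes tested were higher and 65.8% lower. Such a rescaling shifts every log2 ratio by nearly the same amount. The set's distance from the median of all genes could therefore hardly change, and it is no check. The marker lists that were higher in replicate 1 as well had median log2 ratios of 1.01 (striatum), 0.26 (mature oligodendrocyte), 0.26 (inhibitory neuron), 0.25 (red blood cell) and 0.08 (astrocyte), and their part in the 10 differences was not tested.

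The glutathione peroxidases were all 3 among the 10, although under spike-in scaling Gpx1 and Gpx4 turned to the other sign. Gpx3 had the widest difference, with 145 counts in replicate 1 and 88 counts in replicate 2, and was 1.60-fold higher in replicate 1 (log2 0.68, interval 0.30 to 1.09). Gpx1 had a log2 ratio of 0.25 (0.10 to 0.41) and Gpx4 of 0.12 (0.05 to 0.19). Under spike-in scaling Gpx3 stayed above 0 at 0.36, but its interval of -0.02 to 0.77 then held 0.

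Selenop was next among the selenoproteins, at a log2 ratio of 0.20 (0.15 to 0.26), while Selenow was at 0.02 (-0.03 to 0.07). In all, 4 of the 7 selenocysteine genes and 6 of the other 27 were higher in replicate 1. Over all genes tested 11.6% were higher, or 15.2% at a mean count of 100 or more. Of 18 genes of selenoprotein supply and other selenoproteins outside the set, 2 were higher. The median log2 ratio was 0.12 for the selenocysteine genes and 0.04 for the other 27, a split looked at after the values were known and given without a test.

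The remaining 6 genes of the 10 were spread over the roles, and all 6 changed sign under spike-in scaling. The haem oxygenase Hmox2 had a log2 ratio of 0.15 (0.03 to 0.28) and the mitochondrial peroxiredoxin Prdx3 one of 0.15 (0.01 to 0.28). Prdx1 was at 0.10 with an interval whose lower end was 0.0003, and it held 0 when library totals were used. Gstm1 was at 0.09 (0.01 to 0.16), Sod2 at 0.06 (0.02 to 0.11) and Fth1 at 0.04 (0.01 to 0.07). For Fth1 that is a 1.03-fold difference, seen only because 18258 and 17339 counts stood behind it.

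None of the 4 thioredoxin genes and none of the 4 genes of glutathione synthesis and recycling differed beyond counting error. Their log2 ratios lay between -0.09 for Gss and 0.07 for Gclm. Over all genes tested 22.6% differed, or 27.4% at a mean count of 100 or more, so few genes cannot set these roles apart. Hmox1 had a log2 ratio of 0.31 on 69 counts in replicate 1 and 54 in replicate 2, and its interval of -0.21 to 0.86 shows that a difference of that size was not detectable at this depth. Sod3, at 0.20 (-0.06 to 0.46), and Nqo1, at -0.08 (-0.64 to 0.47), were limited in the same way. So were Prdx4 (-0.39 to 0.20), Gss (-0.36 to 0.18) and Txnrd2 (-0.34 to 0.19), whose intervals were wider than that of Sod3.

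**Figure D3:**
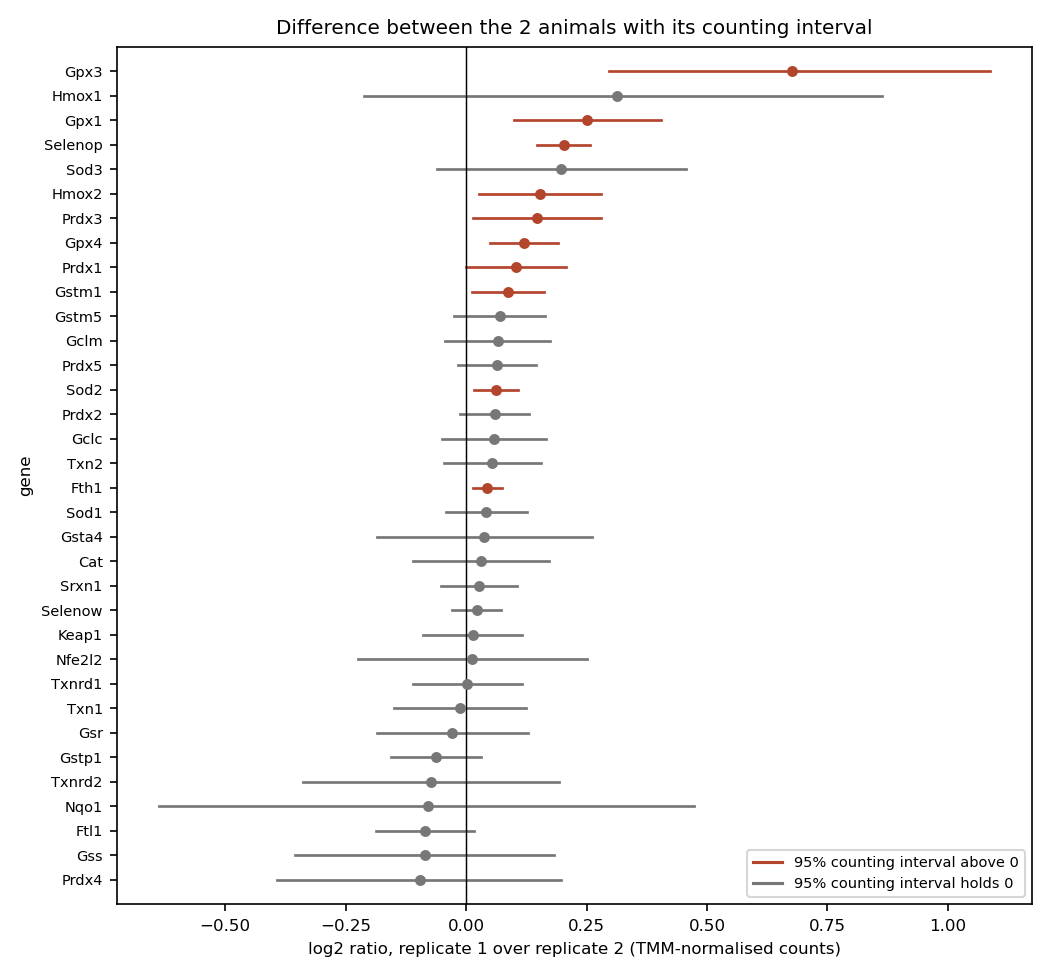
Log2 ratio of replicate 1 over replicate 2 for the 34 genes with its 95% counting interval, from TMM-normalised counts, with intervals above 0 in red and those holding 0 in grey. The 10 red genes are all on the side of replicate 1, led by Gpx3 at 0.68, and under spike-in scaling 9 of these 10 fall below 0.

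The TPM of Gclm differed more between the animals than its counts did. It had 1426 counts in replicate 1 and 1334 in replicate 2, a log2 ratio of 0.07 (-0.04 to 0.17), against 35.9 TPM in replicate 1 and 26.7 TPM in replicate 2. Gclm was also the gene whose level moved most between the 2 deposited quantifications, being at 3.45 times its gene-table level in the other one. There it had 109.9 TPM in replicate 1 and 106.0 TPM in replicate 2, and 3.42 times the level of Gclc. Its transcript forms differed as well. The incomplete form Gclm-207 held 21.2% of the gene's TPM in replicate 1 and 1.08% in replicate 2, and the noncoding form Gclm-202 held 6.33% in the mean, against 42.9% in the other quantification. The part of the forms in the difference in TPM was not tested.

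Of the 34 genes, 29 have more than 1 annotated transcript. The same form led in both animals in 27 of these genes and in both quantifications in 21. For 6 genes 1 form held over 90% of the TPM in both, among them Sod1-201 with 98.7% (98.5% in the other quantification) and Nfe2l2-201 with 96.7% (96.6%). Fth1-201 led with 97.9% (87.2%).

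In 8 genes the leading form differed between the quantifications, namely Gclm, Gpx1, Keap1, Prdx1, Prdx2, Prdx5, Sod2 and Txnrd1. For Prdx1, the incomplete form Prdx1-205 held 58.2% and was at 0 in the other quantification, where the full-length form Prdx1-202 led with 69.9%. For Prdx2, Prdx2-201 held 43.2% and was at 0 in the other, where the retained-intron form Prdx2-205 led with 42.5%. For Prdx5, the incomplete form Prdx5-205 held 43.1% against 0.166% in the other, where Prdx5-201 led with 52.7%. The forms of these 3 peroxiredoxins were thus not settled by the files, while the gene levels kept Prdx2 and Prdx5 above Prdx1 in both tables.

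For Gpx1, the shorter form Gpx1-204 of 145 codons held 53.3% ± 1.86, and the full form Gpx1-201 of 201 codons 42.4% ± 7.56. The selenocysteine codon shown above is annotated in Gpx1-201 and not in Gpx1-204. In the other quantification Gpx1-201 led with 69.0%. Gpx4-202 led in both, with 46.0% ± 2.57 and 72.4% ± 28.3, the wide error of the second coming from the animals' different split between Gpx4-202 and Gpx4-201. For Sod2, the coding form Sod2-201 held 38.6% and the noncoding form Sod2-207 held 37.2%, and their order differed between the animals. For Txnrd1, Txnrd1-201 and Txnrd1-206, both of 499 codons, held 37.6% ± 11.1 and 34.7% ± 1.79, also with an order that differed between the animals. For Keap1, the 4 main forms all have 624 codons, so the change of lead from Keap1-201 (49.8%) to Keap1-205 (46.5% in the other) leaves the coding length as it was.

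**Figure D4:**
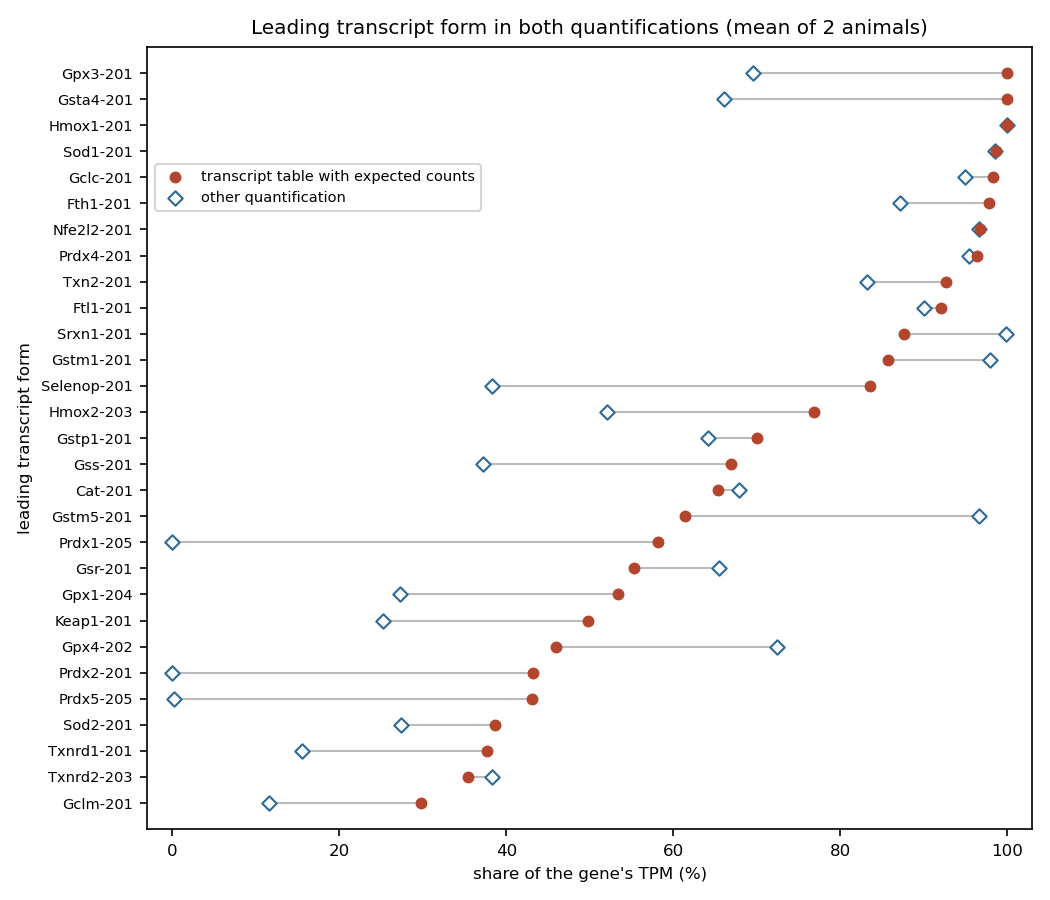
Share in % of the gene's TPM held by the leading transcript form of the 29 genes with more than 1 annotated transcript, as the mean of both animals, with filled circles for the transcript table with expected counts and open diamonds for the same form in the other quantification. Sod1-201, Nfe2l2-201 and Hmox1-201 lie at the same place in both, whereas Prdx1-205 and Prdx2-201 fall to 0.

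Levels in the other quantification were higher for every one of the 34 genes, by 1.32-fold for Srxn1 to 3.45-fold for Gclm. The median was 1.58-fold, beside 1.57-fold over all detected genes. The order of the levels was mostly kept, with Fth1 and Selenow again first and second, but Prdx2 moved from 6th to 3rd, at 358.6 TPM in replicate 1 and 340.8 TPM in replicate 2. There Prdx2 stood above Prdx5, which had 229.3 TPM in replicate 1 and 221.5 TPM in replicate 2. The lead of Prdx5 over Prdx2 in the gene table was therefore not kept.

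For 8 genes over 10% of the 31-base words of the leading transcript occur in other genes, here called near-identical even where the share is small. The deposited posterior SD for the sharing of reads was at most 2.47% of the count for Ftl1, 1.03% for Gpx4 and 2.58% for Gstp1. For the others, namely Sod1, Prdx1, Prdx2, Gstm1 and Fth1, it was at most 0.0394%. The words of 20 genes occur in no other gene. Ftl1 was the most affected. Its copy Ftl1-ps1 (chr13:74399694-74407346, plus strand), which holds 80.6% of the words and is annotated as protein-coding, had 74.9 TPM in replicate 1 and 63.2 TPM in replicate 2. In the other quantification Ftl1-ps1 had 220.2 TPM in replicate 1 and 185.1 TPM in replicate 2, above Ftl1 with 154.7 TPM in replicate 1 and 152.2 TPM in replicate 2, so the order of the 2 genes is uncertain.

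With all near-identical genes added, Ftl1 came to 167.4 TPM in replicate 1 and 161.0 TPM in replicate 2. The ratio of Fth1 to Ftl1 was then 6.07 ± 0.0138, against 11.7 ± 0.876 for Ftl1 alone. The log2 ratio between the animals was 0.06 (-0.01 to 0.14) for the sum and -0.09 (-0.19 to 0.02) for Ftl1 alone, and both intervals held 0. The heavy subunit exceeded the light one under either count.

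Gpx4 and Gstp1 were less affected. Gpx4-ps2, with 73.6% of the words of Gpx4-202, had 20.9 TPM in replicate 1 and 19.8 TPM in replicate 2, and in the other quantification 0.538 TPM in replicate 1 and was listed at 0 in replicate 2. Adding it left Gpx4 higher in replicate 1, at a log2 ratio of 0.12 (0.05 to 0.18), and put Gpx4 at 5.77 ± 0.318 times Gpx1. Gstp2, which shares 67.5% of the words of Gstp1-201, had 14.4 TPM in replicate 1 and 17.5 TPM in replicate 2. The sum of Gstp1, Gstp2 and a pseudogene was lower in replicate 1 by a log2 of -0.09. Its interval of -0.18 to -0.0005 only just left out 0, whereas that of Gstp1 alone was -0.16 to 0.03. Prdx1, with its pseudogenes added, had an interval of -0.0007 to 0.21 and no longer left out 0. Without the 8 genes of shared words, 6 of the remaining 26 were higher in replicate 1.

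**Figure D5:**
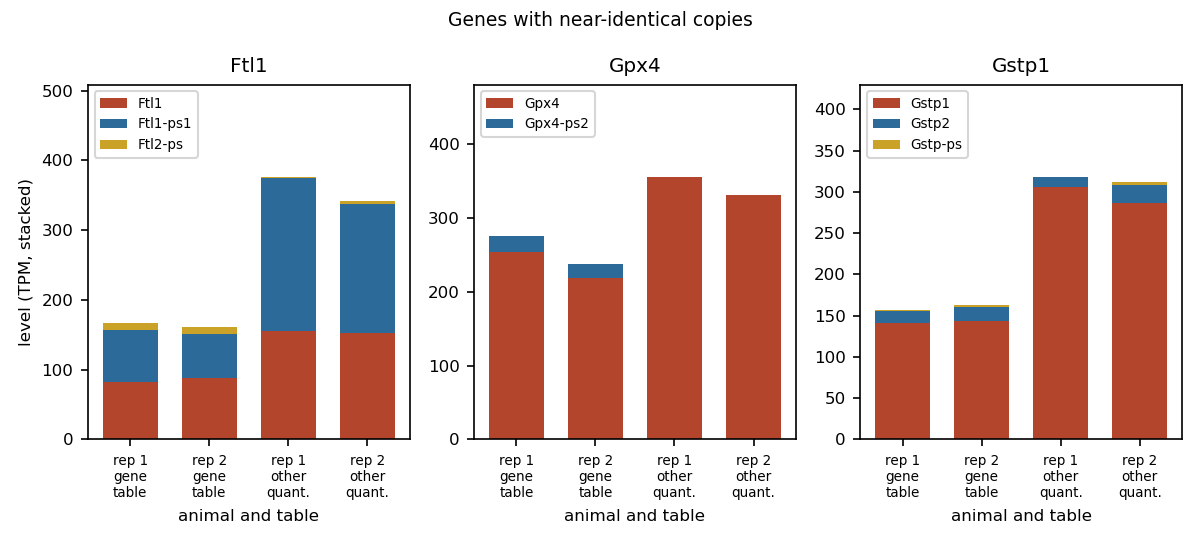
Stacked level in TPM of Ftl1, Gpx4 and Gstp1 and of the genes near-identical to them, for replicate 1 and replicate 2 in the gene table and then in the other quantification, showing genes that reach 1 TPM in any of the 4. Ftl1-ps1 is below Ftl1 in the gene table, with 74.9 and 63.2 TPM, and above it in the other quantification, with 220.2 and 185.1 TPM.

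Other genes of the same pathways were taken as 5 lists. Of their 89 genes tested, 13 were higher and 8 lower in replicate 1, or 23.6%, about the 22.6% over all genes tested. Of 15 other thiol peroxidase and thioredoxin genes, 0 were higher and 2 lower in replicate 1, namely Txnip, an inhibitor of thioredoxin, at a log2 ratio of -0.22 and Txndc17 at -0.29. The highest of them was Prdx6, a peroxiredoxin that also acts on phospholipids, with 141.4 TPM in replicate 1 and 144.1 TPM in replicate 2. That is close to Prdx2 in the gene table. Glrx2, a mitochondrial glutaredoxin, was next, with 53.3 TPM in replicate 1 and 50.5 TPM in replicate 2. Of 18 genes of selenoprotein supply and other selenoproteins, 2 were higher, Selenof at 0.10 and Selenoo at 0.18, and 0 lower. Selenof, with 98.4 TPM in replicate 1 and 90.3 TPM in replicate 2, and Selenok, with 65.0 TPM in replicate 1 and 65.4 TPM in replicate 2, were the most abundant of these.

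Of 29 tested genes of glutathione supply and of other transferases, 5 were higher in replicate 1 and 2 lower. The higher ones included Tkt, a transketolase of the pentose phosphate pathway, at 0.14, and Mgst3 at 0.15, and the others were Taldo1, Me1 and Gsto1. The lower ones were Gstp2 at -0.45 and Slc7a11, the cystine carrier that supplies glutathione synthesis, at -0.19. The call of Gstp2 covers counting error only: it had 111.6 counts in replicate 1 and 150.1 in replicate 2, with deposited posterior SDs of 39.6 and 48.9 counts for the sharing of reads, so its difference is within that uncertainty. Slc7a11 itself was at 10.4 TPM in replicate 1 and 11.4 TPM in replicate 2. Slc3a2, the other subunit of that carrier, had 67.9 TPM in replicate 1 and 68.1 TPM in replicate 2. In the other quantification Slc3a2 had 125.8 TPM in replicate 1 and 169.9 TPM in replicate 2. Gclc, the enzyme that uses the carrier's product, had a log2 ratio of 0.06 (-0.05 to 0.17).

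Of 10 genes listed under Nrf2 control, which include its relatives and its partners on DNA, 3 were higher and 2 lower in replicate 1. Sqstm1, an adaptor that can bind Keap1, was the highest at 232.2 TPM in replicate 1 and 216.4 TPM in replicate 2, with a log2 ratio of 0.11, and Nfe2l1, a relative of Nrf2, was at 133.1 TPM in replicate 1 and 124.3 TPM in replicate 2. In the other quantification the TPM of both was lower in replicate 1. Sqstm1 had 365.8 TPM against 382.6 TPM in replicate 2, and Nfe2l1 had 259.6 TPM against 287.9 TPM in replicate 2. Count ratios of that quantification are not given for either gene. Nfe2l1 was far above Nfe2l2 in both tables. Cul3 was the third of those higher, at 0.09, and Mafg, a partner of Nrf2 on DNA, at -0.18, and Bach2 at -0.19 were the lower ones. Of 17 tested iron genes, 3 were higher and 2 lower. The higher ones were Pcbp1, a chaperone that brings iron to ferritin, at 0.22, Ncoa4, the receptor that takes ferritin to breakdown, at 0.12, and Trf, transferrin, at 0.33. Ncoa4 had 49.1 TPM in replicate 1 and 43.6 TPM in replicate 2 in the gene table. In the other quantification its TPM ran the other way, with 104.3 in replicate 1 and 110.0 in replicate 2. Its count ratio there is not given. The lower ones were the iron carrier Slc11a2 at -0.12 and the ferroxidase gene Cp at -0.22. Pcbp2, a related chaperone, was the most abundant, with 215.3 TPM in replicate 1 and 221.1 TPM in replicate 2, and its interval of -0.03 to 0.09 held 0.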

How the data were processed

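Total RNA of the left cerebral cortex of 2 mice was sequenced, 1 library per animal, with replicate numbers from the labels. The deposited gene table and transcript table give expected counts (read numbers estimated as fractions) from a transcriptome alignment, with mm10 and GENCODE M21 as build and annotation, per the file headers. TPM in these deposited tables sums to 1000000 with spike-ins counted in. The second deposited transcript table, the other quantification, gives estimated counts and TPM made directly from 1 sequence file. Its programs and those of the gene table are not given in the sources read, and no replicates were pooled, per the file headers.

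Levels are the deposited TPM, with mean ± SD over 2 animals. Structural RNAs took 32.5% and 33.5% of TPM. For the ratio between the animals, expected counts were rounded, those averaging 10 counts or more were kept, and log2 ratios of replicate 1 over replicate 2 were taken from CPM after TMM normalisation, prior count 2 (edgeR 4.0.16, R 4.3.3). The 95% interval is a Clopper-Pearson one, exact and conditional on the summed count. It covers only counting error, because each side is 1 library. It takes reads as independent, whereas without molecular identifiers reads are not independent molecules, so it can be too narrow even for counting error. Rows naming no gene held 1.78e-05% and 2.48e-05% of counts and, like the spike-ins (0.428% and 0.345%), were left out. The interval was tested on simulated data. A chi-square of the gene counts exceeded sampling noise (5.94 per degree of freedom), so the files are not 1 library deposited again. That does not show whether they come from separate animals. The labels name separate tissue samples with a shared donor record.

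Alternatives were DESeq2 1.42.0 size factors, spike-in totals, library totals, log2(TPM + 1) and log2(TPM + 0.1), a prior count of 0.5, count minimums of 0 and 100, thresholds of 0.5 and 5 TPM, protein-coding TPM, the other quantification and each animal alone. All 34 genes are named, and of each pathway list the 2 most abundant genes. Genes of the pathway lists that differed between the animals were chosen after their values were seen. The genes and lists were chosen with earlier results of these data known. Codons and hairpins were read from GENCODE M21 transcripts and promoter windows from RefSeq. Protein sequences were not used here.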

Additional observations from a re-analysis of the deposited data

How the results depend on the processing

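No paired analysis was possible because the labels give 1 group only. With ERCC spike-in totals 0 of the 34 genes were higher and 29 lower in replicate 1 (0.811% and 65.8% of all genes tested), the median log2 ratio was -0.27, and the sign turned for Fth1 (-0.28), Sod2 (-0.26), Gstm1 (-0.23), Prdx1 (-0.22), Gpx4 (-0.20), Prdx3 (-0.17), Hmox2 (-0.16), Selenop (-0.12) and Gpx1 (-0.067). The cause was not tested. Without the 8 genes of shared words 6 were higher, a smaller set by construction. DESeq2 size factors gave 10 higher and 0 lower, library totals 9 and 0, and the other quantification 14 and 0 (13.4% and 11.5% of all genes), adding Prdx2, Prdx5, Gclm and Gstm5. The median level was 70.0 TPM in the other quantification and 80.2 TPM over protein-coding genes only, against 37.4 to 40.9 TPM in single animals. At 5 TPM 30 genes were detected. In the other quantification 18 of 21 ratios of genes and 24 of 29 leading shares moved by over 1 SD, the cause of which was not tested. Depth limited Hmox1, Nqo1, Sod3, Prdx4, Gss and Txnrd2, whose intervals were wide.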
